A study of Mus musculus with 12 samples.

Results

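Hox genes encode homeodomain transcription factors that give cells positional identity along the body axis, and in mammals they sit in 4 clusters named A, B, C and D. Expression of 33 of them was compared between 5 populations of epidermal cells sorted from mouse back skin. The genes were chosen by symbol, as every name made of Hoxa, Hoxb, Hoxc or Hoxd and a number, and each was read by its single-gene probe set of highest mean signal over the 12 arrays. They are 33 of 18193 genes measured in this way. The RefSeq table lists 39 such genes, and those without a single-gene probe set were not analysed here.

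The mice carried pTRE-H2B-GFP under K5-tTA, so a histone-GFP label made through a keratin 5 promoter could be shut off by doxycycline and was then diluted by division, and they also carried K14-CreER with the reporter Rosa-tdTomato. All groups shared these 4 transgenes, 2 weeks of food with doxycycline at 1 g/kg, a single tamoxifen dose of 75 mg/kg, and death 1 week after it at second telogen, a resting phase of the hair follicle. The 12 arrays were 3 of BL LRC, 3 of BL non-LRC, 2 each of SL LRC and SL non-LRC, and 2 of GL. From knowledge of the study, BL, SL and GL are read as basal, spinous and granular layer, and LRC as label-retaining cell. GL was not divided by label, sorting gates and ages are not stated in the labels, and no label says whether arrays of a group came from separate animals.

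Neighbouring Hox genes within a cluster are regulated together, and their order on the chromosome follows their order of expression from head to tail. Genes with the same number in different clusters, called paralogues, descend from 1 ancestral gene. Adult skin retains part of this regional pattern, mostly described in dermal fibroblasts. Hoxc13, at the posterior end of its cluster, is known for its role in hair and nail, where it acts on hair keratin genes and on Foxn1.

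Array values were intensities scaled by the authors to a common trimmed mean, so the number of arrays, rather than a read depth, limits the precision. A gene was called above background on an array when it exceeded the 95th percentile of 27 bacterial control probe sets on that array, a level of 22.4 to 42.6 intensity units, and 68.1% to 78.4% of all genes did so. Across genes, arrays of the same group had correlations of 0.925 to 0.932. The arrays fell into 2 sets by signal of the spiked control BioB, with 467 to 524 units on 4 arrays (BL LRC 1, BL non-LRC 1 and both SL non-LRC) and 2885 to 3931 on the other 8. On BL LRC 1 and BL non-LRC 1 none of 3 Y-linked genes was above background, and on each of the other 10 arrays all 3 were. In SL the sets coincide with the label groups, and both GL arrays belong to the high set. All 7 basal keratinocyte markers were above background on every array, GL included. Of them Krt14 read 24820 and 26667 units in GL against 18023 to 25392 elsewhere. The list mostly went the other way, with 4 of the 7 called lower in GL than in SL and than in BL.

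GL arrays also carried more signal of other cell types. The summed intensity of 7 Langerhans and myeloid markers was 26054 to 55796 units in GL and 1071 to 8113 in the other groups, and 6 of the 7 were called higher in GL than in SL and than in BL. For 5 T cell markers the sums were 7738 to 24059 in GL and 2184 to 7875 elsewhere, with 4 of 5 called higher in both comparisons. For 8 hair follicle bulge markers they were 30752 to 31058 against 4883 to 20296, and for 7 melanocyte markers 2081 to 3106 against 570 to 1296. The 7 basal markers summed to 81881 to 85977 in GL and 98188 to 143578 elsewhere, with 4 of 7 called lower in GL than in either other layer. For 8 suprabasal keratinocyte markers the sums were 60733 to 62644 in GL, 72501 to 78631 in SL LRC and 43938 to 55646 in SL non-LRC. In BL LRC they were 52295 to 63504 and in BL non-LRC 36100 to 43861. Of these 8, 5 were called higher in GL than in BL and 2 higher in GL than in SL. The summed signal of 5 endothelial markers stayed between 52.0 and 212 in all groups. For 11 dermal fibroblast markers the sums were 2264 to 2917 in GL, 968 to 1267 in SL LRC and 1656 to 1766 in SL non-LRC. In BL LRC they were 1240 to 1821 and in BL non-LRC 2205 to 2572. Of these 11, 1 was called higher in GL than in BL and 0 in GL against SL. The part of these shifts in the differences of Hox genes between layers was not tested, and in bulk samples fewer cells of a type and less RNA per cell cannot be told apart.

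Promoter sequences are shown for 4 genes that were lower in GL and have an entry in the RefSeq promoter table (GRCm38.p6), to let the start regions of the A and C cluster genes be compared. Each window runs from 250 bases before to 50 bases after the annotated start, 5′ to 3′ on the gene's own strand. Hoxa3 lies at chr6:52213018-52213317, Hoxa7 at chr6:52218524-52218823 and Hoxa9 at chr6:52227321-52227620, all on the minus strand. Hoxc4 lies at chr15:103034145-103034444 on the plus strand. Capitals mark matches to 1 of 5 motifs searched on both strands: the TATA box, spelled TATAAA, the CCAAT motif, the Meis half-site, spelled TGACAG, the composite site of Pbx and Hox proteins, spelled TGATNNAT, and the caudal site, spelled TTTATG. No 2 of the matches shown overlap.
Hoxa3: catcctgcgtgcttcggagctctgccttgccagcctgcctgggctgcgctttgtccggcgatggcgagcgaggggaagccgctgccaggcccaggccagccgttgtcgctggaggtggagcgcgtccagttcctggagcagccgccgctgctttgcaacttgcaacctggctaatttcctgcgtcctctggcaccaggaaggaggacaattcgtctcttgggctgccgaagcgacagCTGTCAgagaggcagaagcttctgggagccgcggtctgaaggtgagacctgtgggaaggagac
Hoxa7: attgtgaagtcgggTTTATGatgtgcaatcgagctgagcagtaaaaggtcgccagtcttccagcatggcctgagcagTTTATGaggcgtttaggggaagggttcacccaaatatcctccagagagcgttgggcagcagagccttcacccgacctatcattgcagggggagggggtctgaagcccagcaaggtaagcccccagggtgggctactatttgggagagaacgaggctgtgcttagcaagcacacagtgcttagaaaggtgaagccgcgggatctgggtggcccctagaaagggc
Hoxa9: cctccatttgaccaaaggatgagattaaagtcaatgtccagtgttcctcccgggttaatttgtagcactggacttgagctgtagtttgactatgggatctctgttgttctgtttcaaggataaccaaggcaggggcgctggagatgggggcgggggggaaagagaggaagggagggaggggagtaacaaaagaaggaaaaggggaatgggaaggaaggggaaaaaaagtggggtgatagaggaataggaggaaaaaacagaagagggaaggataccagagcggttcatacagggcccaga
Hoxc4: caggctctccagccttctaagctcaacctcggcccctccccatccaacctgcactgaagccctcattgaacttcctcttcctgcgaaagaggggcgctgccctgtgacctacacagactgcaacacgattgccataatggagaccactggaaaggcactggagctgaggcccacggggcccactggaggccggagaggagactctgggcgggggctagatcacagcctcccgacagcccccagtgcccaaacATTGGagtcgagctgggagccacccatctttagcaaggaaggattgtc
The Hoxa3 window held 1 Meis half-site on the minus strand (CTGTCA as read, from position -13), and the Hoxa7 window held 2 caudal sites, from -236 and -173. Hoxc4 had 1 CCAAT motif on the minus strand (ATTGG as read, from position 3), and Hoxa9 had no match. Among 21 promoters that the table lists for 19 of the measured Hox genes, CCAAT was found in 12, TGATNNAT in 3, TTTATG in 3, TATAAA in 2 and TGACAG in 2. Among all 32851 promoters of that length the shares were 37.41% for CCAAT, 8.85% for TGATNNAT, 11.85% for TTTATG, 13.62% for TATAAA and 19.18% for TGACAG. Median GC content was 58.0% for the Hox promoters and 52.7% for all promoters. A match describes these letters only.

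Detection followed cluster and position. Of the 33 genes, 17 were above background on all 12 arrays, 21 on at least 6 and 28 on at least 1, while over all genes the shares were 57.0%, 74.8% and 92.5%. Clusters A, B and C had 6 of 9, 6 of 9 and 5 of 7 genes above background on all 12 arrays, and cluster D had 0 of 8. Only Hoxd8 of cluster D reached 6 arrays, with 7, and Hoxd1, Hoxd10, Hoxd11 and Hoxd13 were above background on none. By position, all 12 central genes (paralogue groups 4 to 8) were above background on at least 6 arrays, 10 of them on all 12. Of 14 posterior genes (groups 9 to 13), 3 were on all 12: Hoxa9, Hoxb9 and Hoxc13. Of 7 anterior genes (groups 1 to 3), 4 were, namely Hoxa2, Hoxa3, Hoxb2 and Hoxb3. Each array had between 18 and 24 of the 33 genes above background. Signal depends on the probe, so a gene not above background here may still be expressed, and no level is compared between genes.

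**Figure D1:**
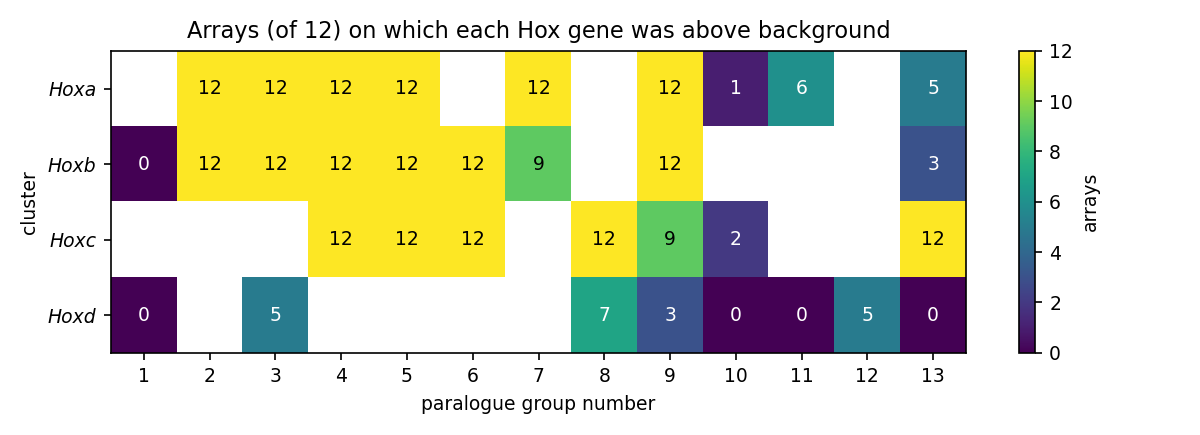
Number of arrays, of 12, on which each Hox gene was above background, by cluster (rows) and paralogue group number (columns); blank cells hold no gene analysed here. The central genes of clusters A, B and C mostly reach 12, and no gene of cluster D exceeds 7.

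Between layers, 1 gene rose and several fell. In GL against BL, limma called 7 of the 33 genes at an adjusted p below 0.05 (21.2%), against 17.1% of all genes: Hoxc13 higher (8.66% of all genes were called higher) and Hoxc4, Hoxc5, Hoxc8, Hoxa3, Hoxa7 and Hoxa9 lower (8.41% of all genes were called lower). The share called is near that over all genes. In GL against SL, 8 of 33 were called (24.2%), against 8.3% of all genes: Hoxc13 higher (background 4.39%) and 7 lower (background 3.91%), which were Hoxc4, Hoxc5, Hoxc8, Hoxa2, Hoxa3, Hoxa7 and Hoxa11. The comparisons share the GL arrays. An F test over all 5 groups called Hoxc13, Hoxc4, Hoxc5, Hoxc8, Hoxa3, Hoxa7 and Hoxa9, 7 of 33 against 16.9% of all genes. Of the 17 genes above background on all 12 arrays, 12 had a GL against BL difference below 0 and 5 above. Over the 10371 genes of all kinds with that detection, 56.0% were below 0. In GL against SL, 16 of the 17 were below 0, where 56.3% of those 10371 genes were. In that comparison the median over all 33 was -0.68 on the log2 scale beside -0.03 over all genes. These values rest on 1 probe set per gene. Other probe sets of Hoxc6 (0.06 and 0.52) and Hoxa4 (0.59) were above 0, while those of Hoxa3, Hoxa5, Hoxa9, Hoxb3, Hoxb4 and Hoxc5 were below 0.

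**Figure D2:**
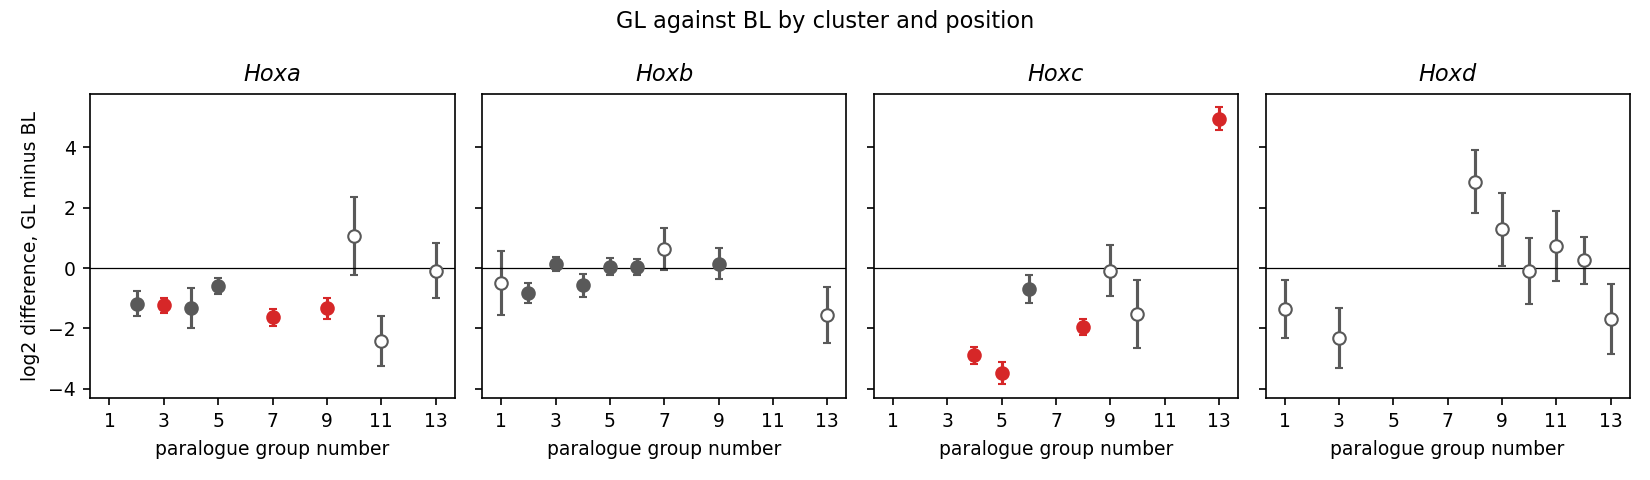
Difference between GL and the mean of both BL groups for each measured Hox gene, on the log2 scale with moderated standard errors, by paralogue group number in each cluster; red points were called at an adjusted p below 0.05 and filled points were above background on all 12 arrays. Hoxc13 stands at 4.95, the called genes of clusters A and C lie between -1.24 and -3.48, and no gene of clusters B or D was called.

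Cluster C held the largest called differences in both directions in GL against BL. Hoxc13, the hair and nail gene, read 67.9, 49.5 and 53.3 intensity units on the 3 BL LRC arrays, 72.0, 161 and 123 in BL non-LRC, 101 and 181 in SL LRC, 434 and 347 in SL non-LRC, and 2217 and 2736 in GL. GL lay above every other array. The difference was 4.95 ± 0.38 (log2, SE), 30.9-fold, against BL (adjusted p = 1.33e-07) and 3.43 ± 0.41, 10.8-fold, against SL (adjusted p = 5.44e-05). Ordered by mean the groups ran from BL LRC through BL non-LRC, SL LRC and SL non-LRC to GL, and of neighbours in that order BL non-LRC and SL LRC overlapped. The gene was above background on all 12 arrays.

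The central genes of the same cluster, known for patterning of the neck and trunk, went the other way. Hoxc4 read 1426, 1392 and 1024 units in BL LRC, then 778, 721 and 434 in BL non-LRC, 701 and 819 in SL LRC, 464 and 484 in SL non-LRC, and 87.9 and 164 in GL. Both GL arrays were below every other array. It fell by 2.89 ± 0.29 against BL (adjusted p = 1.98e-06) and by 2.32 ± 0.30 against SL (adjusted p = 0.000129).

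Hoxc5 had 533, 380 and 498 units in BL LRC, then 477, 371 and 299 in BL non-LRC, 199 and 310 in SL LRC, 182 and 264 in SL non-LRC, and 53.7 and 26.3 in GL. GL again did not overlap any other group and lay close to background. The fall was 3.48 ± 0.37 against BL (11.1-fold, adjusted p = 3.96e-06) and 2.64 ± 0.39 against SL (adjusted p = 0.000405). Its 2 other probe sets also had lower means in GL than in SL, by differences of -3.24 and -0.47, so the size depends on the probe set.

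Hoxc8, which patterns the thoracic skeleton and motor neurons, read 1260, 1447 and 2037 units in BL LRC, then 1376, 1685 and 1228 in BL non-LRC, 1012 and 1585 in SL LRC, 876 and 998 in SL non-LRC, and 512 and 287 in GL. GL was below all 10 other arrays. The difference was -1.95 ± 0.26 against BL (adjusted p = 3.87e-05) and -1.51 ± 0.27 against SL (adjusted p = 0.00197). Without GL 2 the GL against SL call was lost (adjusted p = 0.0635). Hoxc6, above background on all arrays at 66.1 to 232 units, differed by -0.69 ± 0.45 from BL and was not called (adjusted p = 0.359), and Hoxc9 and Hoxc10 were not called.

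**Figure D3:**
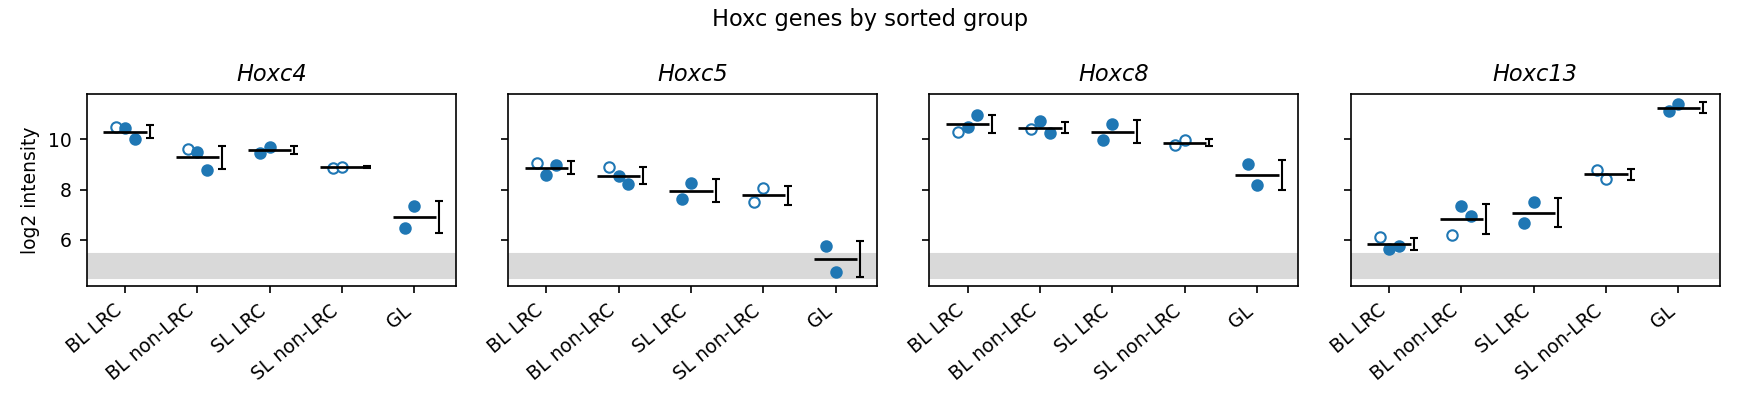
Log2 intensity of Hoxc4, Hoxc5, Hoxc8 and Hoxc13 on each array by sorted group; open points are the 4 arrays of low BioB signal, black lines are group means with the SD beside them (n = 3, 3, 2, 2, 2), and the grey band spans the array backgrounds. GL lies below all other groups for the first 3 genes and above them for Hoxc13; levels are not comparable between panels.

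All 6 cluster A genes above background on every array had a GL against BL difference below 0, from -0.59 to -1.63, and 3 were called. Over all genes with that detection, 56.0% had a difference below 0. Hoxa3, a gene of pharyngeal and thymus development, read 2804, 2819 and 3095 units in BL LRC, then 2574, 1028 and 1426 in BL non-LRC, 3404 and 4030 in SL LRC, 1549 and 1166 in SL non-LRC, and 878 and 924 in GL. GL was lowest, although BL non-LRC 2 lay near it. The difference was -1.24 ± 0.25 against BL (adjusted p = 0.00195) and -1.31 ± 0.26 against SL (adjusted p = 0.00467). Without GL 1 the GL against SL call was lost (adjusted p = 0.0699). All 4 probe sets of Hoxa3 had lower means in GL than in either layer. The RefSeq model of Hoxa3 overlaps those of Hoxa4, Hoxa5 and Hoxa6, and whether its signal includes transcripts of these neighbours was not tested.

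Hoxa7 read 1444, 1255 and 1855 units in BL LRC, then 1232, 805 and 781 in BL non-LRC, 1389 and 2020 in SL LRC, 782 and 355 in SL non-LRC, and 338 and 423 in GL. GL did not overlap BL, while SL non-LRC 2 lay between the GL arrays. The fall was 1.63 ± 0.29 against BL (adjusted p = 0.000616) and 1.31 ± 0.30 against SL (adjusted p = 0.012). Without GL 1 the GL against SL call was lost (adjusted p = 0.156).

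Hoxa9, which like Hoxa7 is a known target of the histone methyltransferase Kmt2a, read 681, 421 and 612 units in BL LRC, then 735, 275 and 564 in BL non-LRC, 983 and 570 in SL LRC, 263 and 378 in SL non-LRC, and 252 and 169 in GL. GL was lowest by a narrow margin. It fell by 1.34 ± 0.36 against BL (adjusted p = 0.0155), whereas the difference of -1.24 ± 0.38 from SL was not called (adjusted p = 0.056), although it passed under some alternatives, such as median centring (adjusted p = 0.0241). Its second probe set differed by -0.37 between GL and BL, and with the mean of both probe sets the GL against BL call was lost (adjusted p = 0.0869), as it was without GL 2 (adjusted p = 0.197).

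At the anterior end, Hoxa2, which patterns the hindbrain and second pharyngeal arch, read 129, 263 and 208 units in BL LRC, then 210, 145 and 301 in BL non-LRC, 423 and 222 in SL LRC, 262 and 160 in SL non-LRC, and 101 and 77.2 in GL. GL lay below all other arrays. The fall against SL was 1.50 ± 0.45 (adjusted p = 0.0473), and the difference of -1.18 ± 0.42 from BL was not called (adjusted p = 0.0657) but passed with median centring (adjusted p = 0.0372). The GL against SL call was lost when any 1 of 8 arrays was left out (BL LRC 2, BL LRC 3, BL non-LRC 1, SL LRC 1, either SL non-LRC or either GL array, adjusted p up to 0.246).

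Hoxa11, a gene of limb and uterine patterning, was near background: 41.1, 22.4 and 48.4 units in BL LRC, then 25.9, 28.1 and 5.83 in BL non-LRC, 63.2 and 43.5 in SL LRC, 24.5 and 52.2 in SL non-LRC, and 7.23 and 2.80 in GL. It was above background on 3 of 4 SL arrays and on neither GL array. The fitted difference between GL and SL was -3.27 ± 0.88 (adjusted p = 0.03), and its size rests on GL values under background. The SL mean, which includes SL non-LRC 1 under its own background, was 1.74-fold above the background of the GL arrays. With values under background raised to it the call was lost (adjusted p = 0.11), as it was without SL LRC 1, SL LRC 2, SL non-LRC 2, GL 1 or GL 2 (adjusted p up to 0.226).

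Hoxa5, a gene of lung and neck skeleton development, read 655, 536 and 734 units in BL LRC, then 364, 338 and 424 in BL non-LRC, 420 and 604 in SL LRC, 458 and 258 in SL non-LRC, and 326 and 321 in GL. GL overlapped SL and lay below BL, with a difference of -0.59 ± 0.28 from BL that was not called (adjusted p = 0.174). A second probe set, above background on all 12 arrays, differed by only -0.03 between GL and BL. Its GL values of 312 and 457 units lay within the BL range of 231 to 687.

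**Figure D4:**
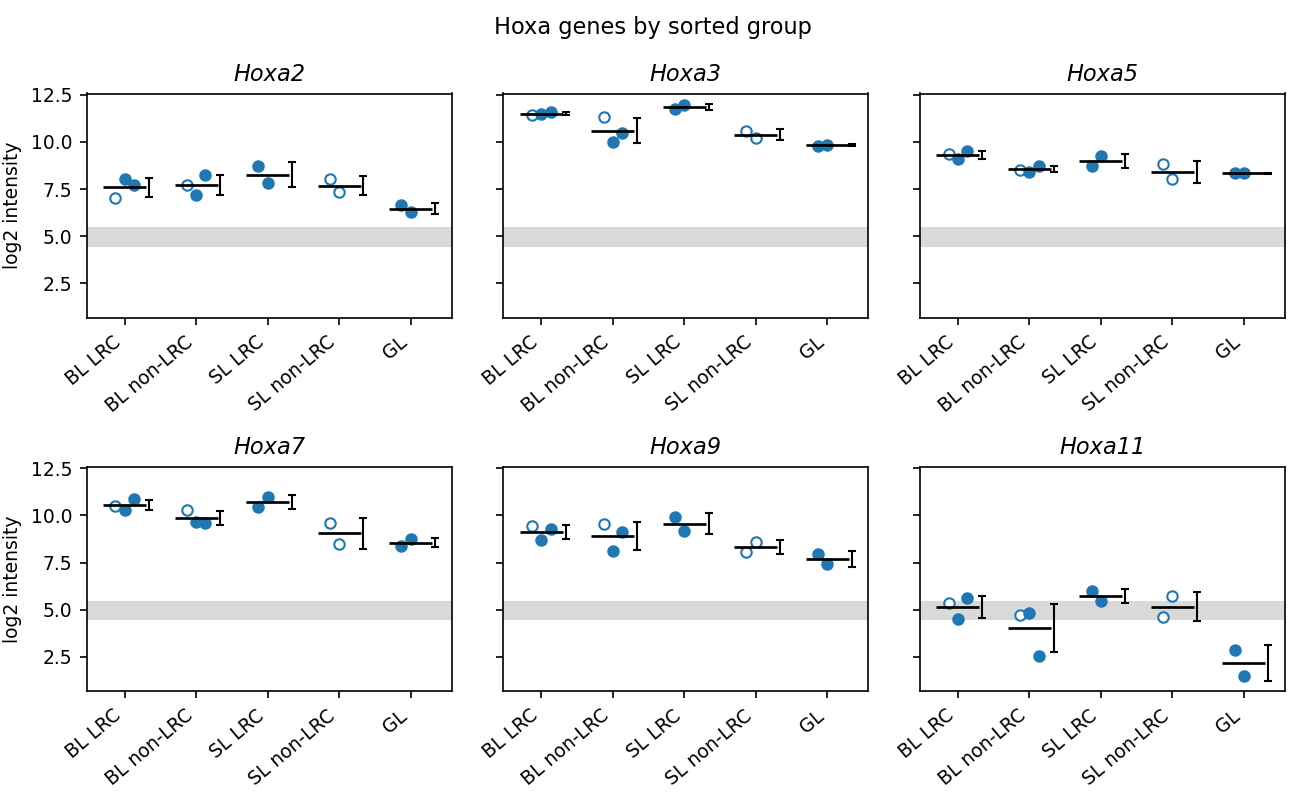
Log2 intensity of 6 Hoxa genes on each array by sorted group, drawn with the same symbols: open points for the 4 arrays of low BioB signal, black lines for means, bars for SD and a grey band for the array backgrounds. Hoxa3 and Hoxa7 are high in SL LRC and low in GL, and both GL values of Hoxa11 lie below the band; levels are not comparable between panels.

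No gene of cluster B was called in the fit of all 12 arrays. Of its 6 genes above background on every array, 4 had a GL against BL difference above 0 and 2 below. Their median was 0.04. Against SL all 6 were below 0. Over all genes with that detection, 56.0% were below 0 against BL and 56.3% against SL. Hoxb3, a hindbrain gene, read 602, 457 and 550 units in BL LRC, then 567, 655 and 954 in BL non-LRC, 609 and 442 in SL LRC, 924 and 1108 in SL non-LRC, and 702 and 644 in GL. GL overlapped BL and SL as layers.

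Hoxb5, known in the gut's nervous system and in blood stem cells, read 612, 663 and 643 units in BL LRC, then 632, 426 and 371 in BL non-LRC, 1313 and 594 in SL LRC, 550 and 546 in SL non-LRC, and 613 and 511 in GL. SL LRC 1 stood above the rest. Both SL LRC arrays and all 3 BL LRC arrays lay above SL non-LRC, while GL overlapped SL and BL, and no comparison called the gene. Hoxb2, which acts in the hindbrain, read 309, 248 and 229 units in BL LRC, then 170, 228 and 285 in BL non-LRC, 281 and 203 in SL LRC, 258 and 188 in SL non-LRC, and 145 and 128 in GL. Both GL values were the lowest, and the difference of -0.82 ± 0.34 from BL was not called (adjusted p = 0.117). Hoxb4 ranged from 415 to 1583 units, Hoxb6 from 629 to 1315 and Hoxb9 from 70.3 to 260, with smallest adjusted p-values over the comparisons of 0.383, 0.602 and 0.825. A probe set shared by Hoxb8 and Hoxb7 was above background on all 12 arrays, at 308 to 1289 units, so signal of that pair was present although neither gene can be assigned it.

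No gene of cluster D was called in that fit. Hoxd8, a gene of the trunk, read 2.85, 58.6 and 24.6 units in BL LRC, then 3.49, 23.1 and 30.3 in BL non-LRC, 21.2 and 57.8 in SL LRC, 66.6 and 43.7 in SL non-LRC, and 121 and 94.3 in GL. GL lay above all other arrays, but only 2 of 6 BL arrays were above background. The GL against BL difference was not called (adjusted p = 0.0737), and its fitted size of 2.86 rests on BL values under background. With values under background raised to it the difference was 1.66 ± 0.38 and passed (adjusted p = 0.00283), as it did with the replicate block (adjusted p = 0.0304). A second probe set, above background on 5 arrays, differed by 0.82 between GL and BL but by -0.36 between GL and SL. On it GL was not highest, at 22.5 and 39.6 units against 106 on SL non-LRC 1. Hoxd12, a gene of distal limb patterning, was above background on all 4 SL arrays (106, 58.9, 43.8 and 42.7 units), on 0 of 6 BL arrays and on 1 of 2 GL arrays. The SL mean was 2.03-fold above the background of the BL arrays, a ratio that carries no error. The fitted difference of 2.09 ± 0.63 rests on BL values under background and was not called (adjusted p = 0.0691). With values under background raised to it the difference passed (1.02, adjusted p = 0.01). That fit replaces all 6 BL values by array backgrounds and so removes their own spread.

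Between SL and BL only Hoxc13 was called, 1 of 33 against 5.03% of all genes called and 2.83% called higher. With the values given above, SL was higher by 1.52 ± 0.30 (2.87-fold, adjusted p = 0.00554), but the layers overlapped, since both SL LRC values lay within or close to the range of BL non-LRC. Within label groups the difference was 1.78 in non-LRC (adjusted p = 0.0463) and 1.26 in LRC (adjusted p = 0.161). Among the arrays of high BioB signal alone, which hold no SL non-LRC array, it was 1.39 (adjusted p = 0.168). Markers moved between these layers as well: 4 of 8 bulge markers were called higher in SL and 1 lower (list median 1.41), 3 of 8 infundibulum and sebaceous and 5 of 8 suprabasal markers higher, and 3 of 7 basal markers lower. Their part in the rise of Hoxc13 was not tested. No Hox gene was called lower (background 2.2%), and the differences of Hoxc4 (-0.57 ± 0.23, adjusted p = 0.202), Hoxc5 (-0.84 ± 0.29, adjusted p = 0.125) and Hoxc8 (-0.44 ± 0.20, adjusted p = 0.288) did not pass.

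Label-retaining cells of SL had more Hoxa3 and Hoxa7 than their non-label-retaining counterparts, 2 of 33 genes against 4.19% of all genes called and 1.49% called higher. The difference was 1.46 ± 0.31 for Hoxa3 (2.76-fold, adjusted p = 0.0106) and 1.67 ± 0.35 for Hoxa7 (3.18-fold, adjusted p = 0.0112), and SL LRC did not overlap SL non-LRC for either. The array sets coincide with these groups, so label and array set cannot be told apart within SL. With array set as a block the differences were 1.97 (adjusted p = 0.0114) and 1.95 (adjusted p = 0.0404). That block is estimated from BL alone, where the low set is the pair without Y-linked signal, so it cannot decide this. Both calls were lost without SL LRC 2 (adjusted p = 0.0987 and 0.131) and without SL non-LRC 2 (adjusted p = 0.143 and 0.191), and that of Hoxa3 also without SL LRC 1 (adjusted p = 0.0558). No gene was called lower (background 2.7%). With the mean of all probe sets of a gene, Hoxa3 lost its call (1.51, adjusted p = 0.0885) and Hoxb3 was called lower in SL LRC (-1.10, adjusted p = 0.0337). The difference was -1.52 ± 0.47 for Hoxc13 (adjusted p = 0.0824), -0.96 ± 0.30 for Hoxb3 (adjusted p = 0.0821) and 1.25 ± 0.44 for Hoxa9 (adjusted p = 0.138), and none passed the threshold in the fit of all 12 arrays. SL LRC and SL non-LRC did not overlap for 10 of the 33 genes, higher in LRC for Hoxa3, Hoxa7, Hoxa9, Hoxb5, Hoxc4, Hoxc8 and Hoxd12 and lower for Hoxa13, Hoxb3 and Hoxc13. The share of all genes without overlap was not computed. With 2 arrays in each group many genes separate without a true difference, so this count is no result about Hox genes. The second probe set of Hoxb3 was also lower in LRC, by a difference of -1.24.

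In BL limma called none of the 33 genes by label, against 1.53% of all genes called, 0.308% higher and 1.23% lower. At an unadjusted p below 0.05 there were 5 Hox genes and 2026 genes in all. The differences of those 5 Hox genes were 0.90 ± 0.25 for Hoxa3 (adjusted p = 0.0993), 1.02 ± 0.29 for Hoxc4 (adjusted p = 0.102), 0.77 ± 0.28 for Hoxa5 (adjusted p = 0.253), 0.71 ± 0.29 for Hoxa7 (adjusted p = 0.343) and, in the other direction, a mean log2 intensity of 5.82 against 6.82 for Hoxc13 (SE of the difference 0.38, adjusted p = 0.297). With the replicate number as a block, Hoxc4 passed (adjusted p = 0.0465). Hoxa3 passed with array set as a block (adjusted p = 0.0494) and among the arrays of high BioB signal alone, where it differed by 1.29 (adjusted p = 0.0123).

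Whether the label difference was unlike in SL and BL was tested as an interaction, and limma called none of the Hox genes and 0% of all genes. At an unadjusted p below 0.05 there were 1 Hox gene, Hoxa7 (0.96 ± 0.45, adjusted p = 0.703), and 1291 genes in all. Of the 17 genes above background on all arrays, 14 had a positive label difference in SL and 13 in BL. Markers of other parts of the epidermis moved with the label as well. The summed signal of 8 infundibulum and sebaceous markers was 16609 to 19802 units in BL LRC against 43918 to 73458 in BL non-LRC, and 36534 to 37350 in SL LRC against 74613 to 86156 in SL non-LRC. In that list 8 of 8 genes were called lower in LRC in BL and 6 of 8 in SL, and of 8 bulge markers 2 were called lower in BL LRC and 4 in SL LRC. In SL LRC 3 of 7 Langerhans and myeloid and 2 of 7 melanocyte markers were also called lower, and of 8 suprabasal markers 2 were called higher in BL LRC, and 3 higher and 1 lower in SL LRC. The sums of 11 dermal fibroblast markers were 1240 to 1821 units in BL LRC against 2205 to 2572 in BL non-LRC. They were 968 to 1267 in SL LRC against 1656 to 1766 in SL non-LRC, and 0 of the 11 were called by label in either layer. The part of all these markers in the Hox differences was not tested.

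**Figure D5:**
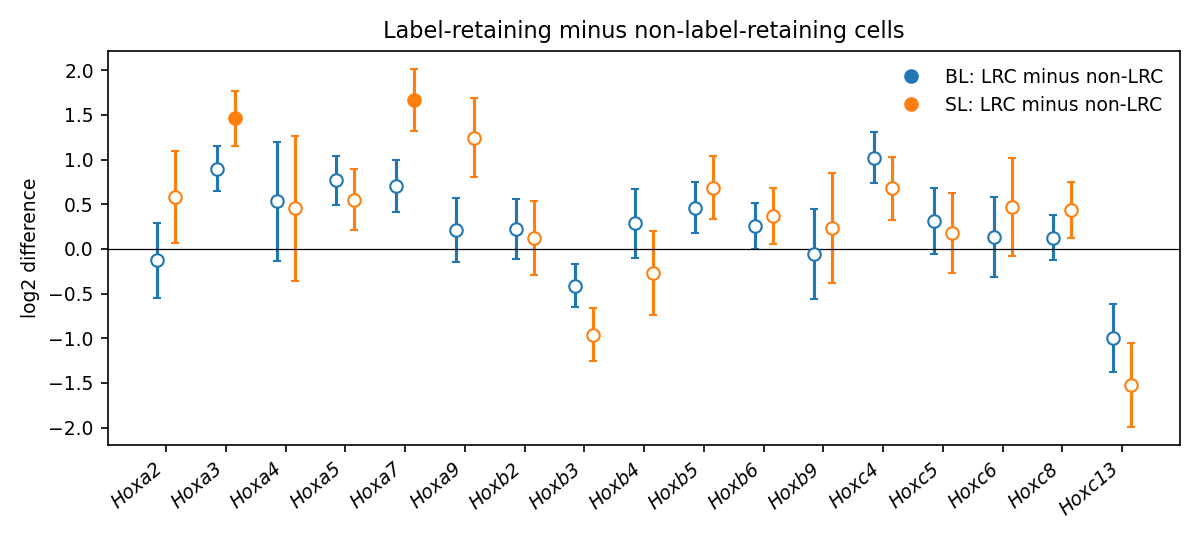
Label-retaining minus non-label-retaining difference of the 17 Hox genes above background on all 12 arrays, on the log2 scale with moderated standard errors, in BL (blue) and SL (orange); filled points were called at an adjusted p below 0.05. Only Hoxa3 and Hoxa7 in SL are filled, and Hoxc13 and Hoxb3 lie below 0 in both layers.

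Hox proteins bind DNA with partners of the TALE homeodomain family, and 11 of 12 listed cofactor genes were measured. Meis1 was above background on every array, at 155 to 283 units. Tgif1 was higher in GL than in SL (0.73 ± 0.17, adjusted p = 0.0125) and than in BL (0.69 ± 0.16, adjusted p = 0.00616), and Pbxip1, which encodes a protein that binds Pbx factors, was higher in GL than in BL (1.10 ± 0.31, adjusted p = 0.0218). No other cofactor was called in these comparisons, and none in SL against BL or by label.

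Polycomb complexes keep Hox genes silent and Trithorax complexes keep them active; 25 of 26 listed members were measured. In GL against BL, 2 were called higher and 4 lower, where 8.66% and 8.41% of all genes were, so the count of 6 of 25 is near that background. The H3K27 demethylase Kdm6b was higher (1.08 ± 0.21, adjusted p = 0.00144) and Ezh2, the H3K27 methyltransferase of dividing cells, was lower (-0.92 ± 0.19, adjusted p = 0.00297), with its paralogue Ezh1 higher (0.67 ± 0.18, adjusted p = 0.0162). None was called in GL against SL. Ezh2 was also lower in SL than in BL (-0.58 ± 0.15, adjusted p = 0.0348), 1 of 25, and Phc1 was the 1 gene called by label, lower in SL LRC.

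Retinoic acid and caudal factors act upstream of Hox genes in the embryo; 16 of 17 listed genes were measured. Crabp2, a retinoic acid binding protein, rose in SL against BL (2.89 ± 0.17, adjusted p = 1.17e-07) and in GL against BL (3.63 ± 0.21, adjusted p = 8.05e-09). The retinoic acid synthesis gene Aldh1a2 was above background on the SL non-LRC arrays (218 and 158 units) and in GL (534 and 846), and on no other array. In all, 2 genes were called higher in SL against BL, where 2.83% of all genes were called higher. In GL against BL 3 were called higher and 1 lower (8.66% and 8.41% of all genes). In GL against SL 1 was called higher and 2 lower (4.39% and 3.91%). By label 2 were called lower in SL LRC (2.7%).

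Of 28 listed non-coding and flanking genes of the clusters 15 were measured. The antisense transcript Hoxb5os was above background on all 12 arrays and was not called in any comparison. Cbx5, near cluster C, was lower in SL than in BL (-0.79 ± 0.16, adjusted p = 0.00599) and in GL than in BL (-0.68 ± 0.20, adjusted p = 0.0275), and Hibadh, near cluster A, was lower in BL LRC (-0.82 ± 0.19, adjusted p = 0.0331). No gene of this list was called in GL against SL.

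Of the hair shaft and matrix genes listed around Hoxc13, 11 of 24 measured were called higher in GL than in BL and 7 in SL than in BL, where 8.66% and 2.83% of all genes were, with medians of 1.18 and 0.74 beside -0.02 and 0.00 over all genes. Foxn1 read 249 to 731 units in BL, 628 to 1563 in SL, and 1153 and 1390 in GL, a difference of 1.56 ± 0.25 for GL against BL (adjusted p = 0.000322). Krt71, an inner root sheath keratin, read 8.86 to 105 units in BL and 814 and 1035 in GL (4.33 ± 0.55, adjusted p = 3.01e-05), and Krt25, of the same tissue, read 25.6 to 78.6 and 924 and 1371 (4.86 ± 0.51, adjusted p = 3.8e-06). They were above background on 5 and 4 of the 6 BL arrays. Hair keratins of the list were mixed. Krt35 read 1 to 23.4 units in BL and 1085 and 379 in GL, and Krt31 read 12.2 to 70.6 and then 160 and 98.7. GL overlapped BL for Krt33a, Krt33b, Krt34, Krt36, Krt81, Krt83 and Krt86. For Krt34 the values were 46.9 to 91.9 units in BL and 82.2 and 128 in GL. In GL against SL 4 genes of the whole list were called higher, and Gata3 was the 1 gene called lower, as it was against BL (-1.05 ± 0.15, adjusted p = 9.38e-05). The list was written with the rise of Hoxc13 already known and gives no independent support to it.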

How the data were processed

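Microarrays of 12 sorted samples were used. Per the labels' protocols, cDNA was made from 5 ng of RNA (Ovation Pico WTA System) and biotin-labelled (Encore Biotin Module, both NuGEN). Which software summarised the probe sets is not given in the sources used here. Deposited values are linear intensity values with a floor of 1, brought by the authors to a common 2% trimmed mean of 500, as recomputed from the values. The design had assumed log2 values; log2 was taken with nothing added. The platform annotation names 1 gene for 34945 of 45101 probe sets, several for 932 and none for 9160, and 64 are controls.

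One limma 3.58.1 model (R 4.3.3) of 5 group means was fitted over all 12 arrays, with empirical Bayes moderation and a mean-variance trend, and p-values were adjusted by Benjamini-Hochberg over 18193 genes at 0.05. Errors are moderated standard errors. SL and BL stand for the mean of their 2 groups. No label ties arrays to separate animals, so p-values measure the spread between arrays, which may be technical. Described gene by gene were the 9 Hox genes called in any comparison and the next by F test p among those above background on at least 6 arrays, up to 14. Hoxd12, above background on 5 arrays, was described outside this rule. From each other list up to 3 genes of smallest p in a comparison were named. Meis1, Hoxb5os, Krt14 and the hair keratins were named after their values were seen. The genes and lists were chosen with earlier results of these data known.

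Samples with the same replicate number deviated together in BL (r = 0.109 to 0.190 over 13614 genes, 3 of 3 pairs), where number 1 is also the low-BioB pair without Y-linked signal. Alternatives were normalisation, filter, probe choice, trend, replicate and array-set blocks, array subsets and leaving out each array. The scripts were tested on simulated data. Promoters and gene models come from RefSeq, with 33 of 33 symbols matched by gene ID. Figures used Python 3.11.15 and matplotlib 3.10.9.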

Additional observations from a re-analysis of the deposited data

How the results depend on the processing

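Of 396 alternative values of the 18 called gene results, 358 kept their direction and side of the threshold, 38 kept the direction but lost the call, and 0 reversed. Calls of Hoxc13, Hoxc4 and Hoxc5 in both GL comparisons, and of Hoxa3, Hoxa7 and Hoxc8 in GL against BL, held in all 22 alternatives tried for each. Hoxa2 and Hoxa11 in GL against SL lost theirs in 11 and 8 of 22, with adjusted p up to 0.246 and 0.226. Counts of called Hox genes moved as follows, and the cause was not tested. The BL label count of 0 became 1 with the replicate block (Hoxc4), with the array set block and in the high array set alone (Hoxa3), and spanned 0 to 1 when single arrays were left out (1, Hoxa3, without BL non-LRC 1). The SL label count of 2 became 0 without the mean-variance trend and spanned 0 to 2 when single arrays were left out (0 without SL LRC 2 or SL non-LRC 2, and 1 without SL LRC 1). With the mean of all probe sets it stayed 2, but Hoxb3, lower, replaced Hoxa3. The SL against BL count of 1 became 2 with values under background raised to it (Hoxd12 joined), 2 with the replicate block (Hoxc4 joined, -0.78, adjusted p = 0.0478), 2 with the array set block (Hoxd8 joined, 2.12, adjusted p = 0.0462), and 0 in the high array set alone and within LRC groups. The GL against SL count of 8 became 5 without the trend and spanned 4 to 9 when single arrays were left out, with 4 without GL 1 (Hoxc13, Hoxc4, Hoxc5 and Hoxc8). The GL against BL count of 7 ranged from 6 to 10, with Hoxa2 and Hoxa11 joining under median centring and under quantile normalisation, Hoxb2 under the latter (adjusted p = 0.0473) and Hoxd8 with raised values and with the replicate block, and the F test count of 7 from 6 to 9. Without the trend, all genes called fell from 1510 to 713 in GL against SL, from 763 to 150 by label in SL, from 279 to 72 by label in BL, from 915 to 374 in SL against BL, and from 3071 to 1575 in the F test. Centring arrays on the median moved the median of all genes from -0.03 to -0.19 in GL against SL and from -0.02 to -0.16 in GL against BL, and the share of calls that were lower from 47.1% to 64.8%, from 49.3% to 60.9%, and from 64.5% to 51.1% by label in SL. The replicate block changed no other Hox count by over 1.5 times, and numbers paired samples in BL only: 3 of 21 same-number pairs correlated above 0.1. Without the trend the GL against SL calls of Hoxa2, Hoxa3 and Hoxa7 and the GL against BL call of Hoxa9 were lost, and in the high array set alone that of Hoxa9 (adjusted p = 0.0592). The count of all genes called by label in SL was 320 with the array set block, and the counts in the high array set alone were 136 by label in BL and 282 in SL against BL, where within LRC and within non-LRC groups it was 512 and 283. With the 2 BL groups alone the BL label count was 183. Leaving out single arrays took it as low as 131, by label in SL 209, in SL against BL 529, in GL against SL 575 and in GL against BL 1652. In the high array set alone the SL label difference and the interaction could not be fitted, since it holds no SL non-LRC array.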
